A study of Homo sapiens with 6 samples.

Results

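The genes of the Polo kinases, the Aurora kinases and their partners were examined as one set of 10 genes among the 13244 genes of the deposited count table. The set was chosen by gene symbol and holds PLK1, PLK2, PLK3 and PLK4, AURKA with its activator TPX2, and the 4 subunits of the chromosomal passenger complex, AURKB, INCENP, BIRC5 and CDCA8. RNA-Seq had been performed on MOLM14 cells, an established human AML cell line whose genotype is given as FLT3 ITD, an internal tandem duplication that leaves the FLT3 receptor kinase active. All 6 cultures were grown in RPMI with FBS and treated for 24 hours, 3 with DMSO (replicates 1, 2 and 3) and 3 with 2 nM of HSN748 (replicates 7, 8 and 9), the FLT3 inhibitor of the study. The comparison asks how transcript levels in a FLT3-ITD line differ after exposure to the inhibitor. The cultures are described as biologically independent, and all come from 1 cell line.

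Library totals ranged from 35277785 to 59279430 counts. Within each treatment, pairs of libraries differed by more than sampling noise, with a chi-square per degree of freedom of 22.6 to 88.8, and the highest values, 51.8 and 88.8, were both of pairs with DMSO replicate 3. Without that library, PLK1 had a log2 fold change of -3.02 and PLK4 of -2.99. At an adjusted p under 0.05, 36.6% of all tested genes were higher with HSN748 and 36.5% lower. Of 12 markers of myeloid and KMT2A-rearranged leukemia, all were measured and 8 were higher, 2 lower and 2 not past the test with HSN748. With total counts, upper-quartile factors or 12 reference genes as scale, 9 of these markers were higher and 1 lower. Among them CSF1R, the receptor of macrophage colony-stimulating factor, rose from 11.1 ± 1.26 to 229 ± 21.5 CPM, and MPO, the myeloperoxidase of granulocyte precursors, fell from 10.9 ± 1.92 to 2.28 ± 0.30 CPM (SD, n = 3 each). Of 15 markers of lymphoid, erythroid, epithelial and stromal cells, 5 were measured, and their summed level was 217 to 219 CPM in DMSO and 600 to 666 CPM in HSN748 libraries. PECAM1, which myeloid cells also express, made up nearly all of it, KRT18 was at 4.72 to 6.34 CPM, and CD79A, KRT8 and COL1A1 were at 3.85 CPM or less. The count table had no row for the T cell markers CD3E, CD3D and CD2, the B cell marker MS4A1, the erythroid genes HBB and HBA1, and EPCAM and COL1A2. Of the 5 measured, PECAM1, CD79A, KRT8 and COL1A1 were higher with HSN748. The part of these marker changes in the results below was not tested.

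Polo and Aurora kinases drive cells through mitosis. PLK1 promotes entry into mitosis, centrosome maturation, chromosome segregation and cytokinesis, and PLK4 starts the duplication of centrioles. PLK2 and PLK3 are relatives whose genes are known to respond to serum, stress and DNA damage rather than to act mainly in mitosis. Aurora A, made from AURKA, works at centrosomes and on spindle microtubules, where TPX2 activates it, and it also activates PLK1 together with BORA. Aurora B, made from AURKB, works at centromeres and the spindle midzone within the chromosomal passenger complex, in which INCENP is the scaffold and BIRC5 (survivin) and CDCA8 (borealin) place the enzyme on chromatin. Transcripts of the mitotic members accumulate in G2 and M phase, and FOXM1, MYBL2 and the MuvB complexes are known regulators of such genes.

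The promoters are shown because G2/M genes are known for the TTTGAA element, which MuvB complexes bind, and for CCAAT boxes, which NF-Y binds. Any part of these elements in the changes of RNA was not tested. Promoter entries from RefSeq (GRCh38.p14, 250 bases before to 50 after each start) were matched by symbol for 7 of the 10 genes, with none for AURKA, TPX2 and BIRC5. The 130 bases before the start are printed for 6 genes on the strand of the gene, 5′ to 3′, with capitals for every match to a searched motif on either strand. They lie at chr16:23678759-23678888 (PLK1, plus strand), chr11:62123881-62124010 (INCENP, plus), chr1:37692386-37692515 (CDCA8, plus), chr4:127880763-127880892 (PLK4, plus), chr5:58460087-58460216 (PLK2, minus) and chr1:44800247-44800376 (PLK3, plus).
PLK1: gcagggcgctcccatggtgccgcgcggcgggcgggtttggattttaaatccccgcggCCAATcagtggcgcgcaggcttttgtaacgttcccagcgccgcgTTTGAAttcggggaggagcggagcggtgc
INCENP: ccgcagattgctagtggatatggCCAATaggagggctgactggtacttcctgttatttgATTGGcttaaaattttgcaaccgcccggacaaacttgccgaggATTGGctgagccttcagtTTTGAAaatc
CDCA8: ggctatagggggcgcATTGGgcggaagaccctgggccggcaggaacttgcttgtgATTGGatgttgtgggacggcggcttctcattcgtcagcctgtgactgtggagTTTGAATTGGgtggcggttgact
PLK4: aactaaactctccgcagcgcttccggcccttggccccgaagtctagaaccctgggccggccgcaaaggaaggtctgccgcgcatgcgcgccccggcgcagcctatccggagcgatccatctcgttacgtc
PLK2: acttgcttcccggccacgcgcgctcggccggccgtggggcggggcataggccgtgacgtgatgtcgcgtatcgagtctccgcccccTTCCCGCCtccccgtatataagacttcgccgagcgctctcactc
PLK3: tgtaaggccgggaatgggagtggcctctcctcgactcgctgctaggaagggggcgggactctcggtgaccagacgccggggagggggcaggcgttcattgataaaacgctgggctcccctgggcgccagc

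TTTGAA was found in 4 of the 7 promoters, at position -29 in PLK1, -10 in INCENP and -23 in CDCA8, and on the other strand at position 39 in PLK4, past the start and outside the printed bases. Positions count from the start of the transcript and give the first base of the match on the strand of the gene. The promoters of AURKB, PLK2 and PLK3 did not hold TTTGAA. The element was present in 15.2% of all 35116 promoters of this length and in 10.0% of those of the tested genes. CCAAT or its reverse ATTGG was found in PLK1, INCENP, CDCA8 and AURKB, the last at position -153 and not printed. It was present in 34.6% of all promoters and in 37.0% of those of the tested genes. INCENP and CDCA8 held 3 matches each, and in CDCA8 the last ATTGG overlaps TTTGAA by 1 base. Of the E2F-type motifs searched, GGCGGGAA was found on the other strand in PLK2 at position -44. It was present in 3.16% of all promoters and in 5.09% of those of the tested genes. For AURKB and PLK2 the transcript start that the RefSeq promoter entry uses lies inside the gene as the count table gives it, so that both of these matches fall within the gene of the table and not before its start. For the other 5 matched genes both starts were the same. TTTGGCGC, TTTCCCGC, TTTGGCGG, TTTGGCG (which the first and the third of these contain) and the element variant TTCGAA had no match in the 7 promoters. PLK3 had no match to any of the 8 motifs, which says only that these letters are not in its 300 bases. The motifs were searched with the expression results known, and a match is no measure of binding.

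All 10 genes passed the low-count filter. Each adjusted p below comes from the quasi-likelihood test of edgeR over the 13084 tested genes, adjusted by Benjamini-Hochberg over all of these. To be called, a gene needed an adjusted p under 0.05 together with a difference larger than 1 on the log2 scale. HSN748-treated cells had less RNA of 9 of the 10 genes by this rule and more of none, where 14.9% of all tested genes were called lower. At the adjusted p alone all 10 were lower under TMM scaling (PLK2 not with 3 of the other scalings), against 36.5% of all genes, and all 3 HSN748 libraries lay below all 3 DMSO libraries for each of the 10, as for 37.1% of all genes. The median log2 fold change of the 10 genes was -2.66, that of all tested genes 0.01. Levels are given in CPM, the reads of a gene relative to the size of its library after TMM scaling, and member counts ranged from 154 to 16045. In bulk RNA, a smaller share of cells in G2 and M phase and less transcript per cell cannot be told apart. With 3 libraries against 3 an exact permutation test of a gene cannot go below p = 0.1, so none is given.

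**Figure D1:**
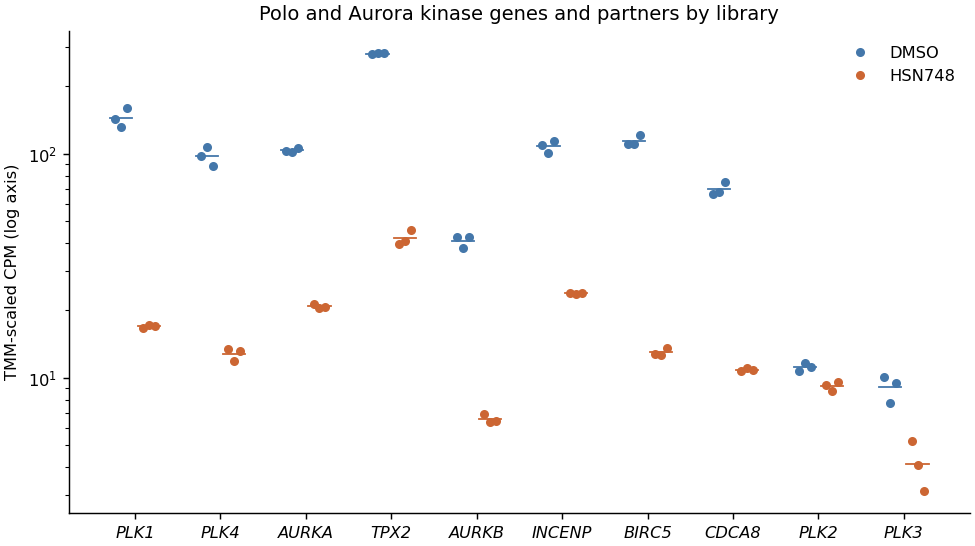
TMM-scaled CPM on a log axis for each of the 10 genes, with 1 point per library and a line at the mean of the 3 DMSO or the 3 HSN748 libraries. For each gene the HSN748 points lie below the DMSO points, with a gap of 8.54-fold between the means for PLK1 and of 1.22-fold for PLK2.

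PLK1 and PLK4, the Polo kinases of the division cycle, had fallen by 8.54-fold and 7.59-fold. PLK1 (chr16:23678889-23690367, plus strand) stood at 142, 132 and 160 CPM in DMSO replicates 1, 2 and 3 and at 16.7, 17.2 and 17.0 CPM in HSN748 replicates 7, 8 and 9. The DMSO libraries spread more than the treated ones, and the groups lay far apart. The log2 fold change was -3.09 (SE 0.09, adjusted p = 3.00e-08), and 0.81% of all tested genes fell further. PLK4 (chr4:127880893-127899222, plus strand) was at 97.3, 107 and 87.9 CPM with DMSO and at 13.4, 11.9 and 13.2 CPM with HSN748. DMSO replicate 3 was the highest DMSO library for PLK1 and the lowest for PLK4. The log2 fold change of PLK4 was -2.92 (SE 0.10, adjusted p = 6.03e-08).

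AURKA and TPX2, the enzyme and its activator on the spindle, fell by different amounts. AURKA (chr20:56369389-56392337, minus strand) was at 103, 102 and 106 CPM in DMSO and 21.3, 20.6 and 20.7 CPM in HSN748 libraries. Both groups were tight, and the log2 fold change was -2.31 (SE 0.07, adjusted p = 3.29e-08). TPX2 (chr20:31739290-31801800, plus strand) had 278, 281 and 280 CPM in DMSO and 39.8, 40.9 and 45.9 CPM in HSN748 libraries, of which replicate 9 was the highest. It was the most abundant of the 10 genes, and its change was -2.73 in log2 units (SE 0.08, adjusted p = 2.81e-08). Within each library, the log2 ratio of TPX2 to AURKA was 1.43 ± 0.03 with DMSO and 1.01 ± 0.13 with HSN748 (SD, n = 3 each), and the libraries of the groups did not overlap. A ratio within a library does not depend on the scaling, and 11 such ratios were computed between members and are given without a test. AURKAP1, a processed copy of AURKA that is counted on its own in the table, was at 0.82 ± 0.01 CPM in DMSO and 0.65 ± 0.04 CPM in HSN748 libraries (adjusted p = 0.212), so that few reads were assigned to it, and reads of AURKA that match both could not be separated here.

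All 4 subunits of the chromosomal passenger complex fell, from 4.55-fold for INCENP to 8.74-fold for BIRC5. AURKB (chr17:8204731-8210575, minus strand), the catalytic subunit, was at 42.5, 37.8 and 42.6 CPM in DMSO and 6.93, 6.35 and 6.42 CPM in HSN748 libraries (log2 fold change -2.64, SE 0.10, adjusted p = 7.22e-08). INCENP (chr11:62124011-62153166, plus strand), the scaffold that binds and activates AURKB, was at 110, 101 and 114 CPM in DMSO libraries and at 24.0, 23.7 and 23.8 CPM in HSN748 libraries. Its treated libraries were the tightest of the 10 genes, with a CV of 0.531%, and its change of -2.19 in log2 units (SE 0.08, adjusted p = 6.04e-08) was the smallest of the 8 mitotic genes.

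BIRC5 (chr17:78214253-78225635, plus strand), which reads a histone mark at centromeres and is also known as an inhibitor of apoptosis, had the largest change of the 10. It stood at 110, 110 and 121 CPM in DMSO and 12.8, 12.7 and 13.6 CPM in HSN748 libraries (log2 fold change -3.13, SE 0.08, adjusted p = 2.33e-08). CDCA8 (chr1:37692516-37709719, plus strand), which links BIRC5 and INCENP, was at 66.3, 67.5 and 74.7 CPM in DMSO and 10.7, 11.0 and 10.8 CPM in HSN748 libraries (log2 fold change -2.68, SE 0.08, adjusted p = 4.19e-08).

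INCENP and BIRC5 did not keep their proportions to AURKB in RNA. The log2 ratio of INCENP to AURKB was 1.40 ± 0.03 with DMSO and 1.86 ± 0.06 with HSN748. The ratio of BIRC5 to AURKB went the other way, from 1.47 ± 0.09 to 0.99 ± 0.10, and neither pair of groups overlapped. CDCA8 to AURKB was 0.76 ± 0.11 with DMSO and 0.73 ± 0.09 with HSN748, a difference of -0.04 (SE 0.08), and the groups overlapped. AURKB itself lost more than AURKA, with a log2 ratio of -1.34 ± 0.08 with DMSO and -1.67 ± 0.04 with HSN748 (SD, n = 3 each).

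**Figure D2:**
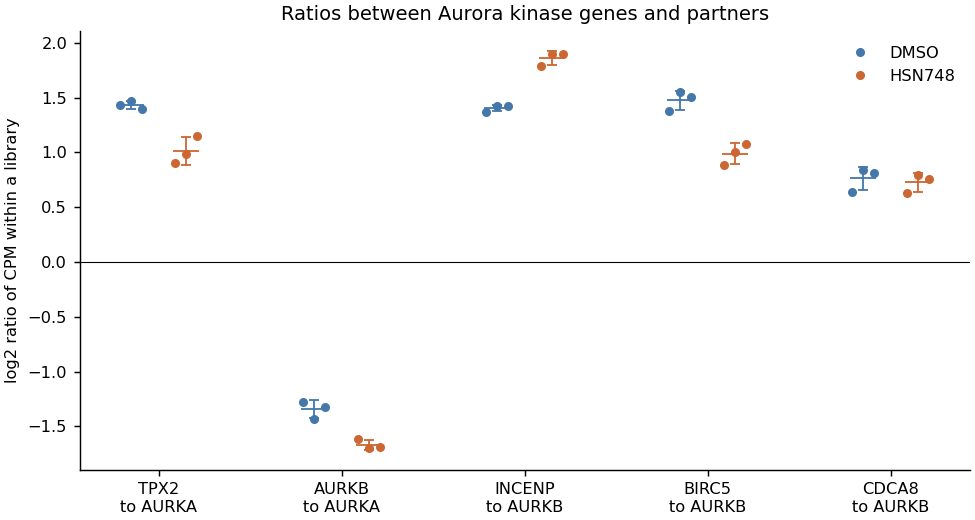
Log2 ratio of the CPM of 2 genes in the same library, for 5 pairs of Aurora kinase genes and partners. Points are libraries, and bars show the mean and SD of the 3 DMSO and the 3 HSN748 libraries. INCENP to AURKB is higher with HSN748, TPX2 to AURKA, AURKB to AURKA and BIRC5 to AURKB are lower, and CDCA8 to AURKB overlaps.

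PLK2 and PLK3 differed from the other 8 genes in their level in DMSO libraries and in their change. With HSN748, the mean of PLK2 was 9.19 CPM and that of AURKB 6.57 CPM. Per kilobase of gene length the order was the other way, with PLK2 at 3.24 ± 0.14 and AURKB at 4.47 ± 0.22 CPM without overlap. PLK2 (chr5:58453983-58460139, minus strand) was at 10.8, 11.7 and 11.2 CPM in DMSO and at 9.27, 8.77 and 9.55 CPM in HSN748 libraries. The groups did not overlap but lay 1.22-fold apart in their means. Its log2 fold change was -0.29 (SE 0.10), which passed the adjusted p of edgeR (0.0249) and not the fold threshold, and 37.2% of all genes fell further. This small change depended on the scaling. It was -0.16 with total counts (adjusted p = 0.161), -0.08 with upper-quartile factors (adjusted p = 0.472) and 0.02 with scaling on 12 reference genes (adjusted p = 0.890). These scalings moved the median of all genes by as much, to 0.13, 0.21 and 0.31, and PLK2 lay 0.29 below the median of all genes under each of them and under TMM. The adjusted p of PLK2 also rose above 0.05 in edgeR without DMSO replicate 1 (0.0509), DMSO replicate 2 (0.0532), HSN748 replicate 7 (0.0774) or HSN748 replicate 8 (0.107).

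PLK3 (chr1:44800377-44805990, plus strand) had 10.1, 7.76 and 9.46 CPM in DMSO and 5.21, 4.09 and 3.13 CPM in HSN748 libraries. HSN748 replicate 9 was the lowest and replicate 7 the highest of the treated libraries, with a CV of 25.1% among the 3, against 7.72% or less for the other 9 genes. The log2 fold change was -1.14 (SE 0.19, adjusted p = 6.01e-04). It passed the fold threshold narrowly. Without HSN748 replicate 9 it was -0.96, with upper-quartile factors -0.93 and with the 12 reference genes -0.84, so that 8 of the 10 genes were then called lower. PLK3 passed the adjusted p in each of these fits.

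**Figure D3:**
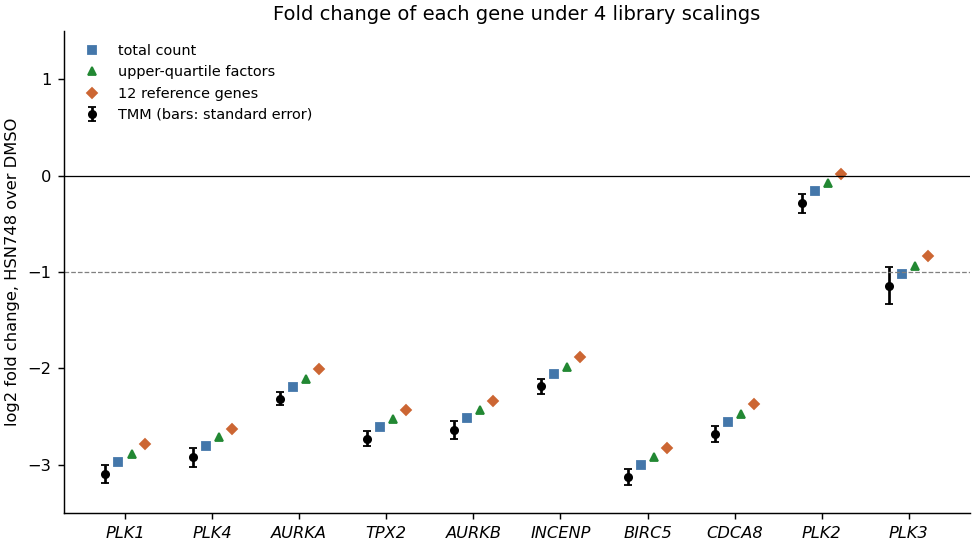
Log2 fold change of HSN748 over DMSO for each gene under 4 scalings of the libraries. Black circles are TMM values with their SE, the solid line marks 0 and the dashed line the fold threshold of -1. PLK2 is -0.29 with TMM and 0.02 with the 12 reference genes, PLK3 crosses the dashed line, and the other 8 genes stay at or below -1.88 under each scaling shown.

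The mitotic Polo kinase genes were compared with the stress-type ones as ratios of CPM within each library, not divided by gene length. Gene length cancels in the change of such a ratio between treatments, but not in the ratio itself. The mean log2 level of PLK1 and PLK4 exceeded that of PLK2 and PLK3 by 3.50, 3.64 and 3.53 in DMSO replicates 1, 2 and 3 and by 1.11, 1.25 and 1.45 in HSN748 replicates 7, 8 and 9. The excess thus went from 11.8-fold to 2.42-fold, a difference of -2.28 on the log2 scale (SE 0.11, n = 3 each), and the groups lay far apart. Leaving out any 1 library gave -2.37 to -2.20. Each of the single pairs moved in the same direction. PLK1 changed against PLK2 by -2.80 (SE 0.11) and against PLK3 by -1.93 (SE 0.23), and PLK4 changed against PLK2 by -2.63 (SE 0.08) and against PLK3 by -1.76 (SE 0.28). PLK1 and PLK4 kept their ratio within the spread of the libraries, with PLK4 to PLK1 at -0.57 ± 0.28 in DMSO and -0.41 ± 0.11 in HSN748 libraries. PLK2 to PLK3 went from 0.31 ± 0.25 to 1.18 ± 0.39 without overlap, the widest SD among the ratios. The members and this contrast were chosen with results of these data known, so the ratios are given as a description.

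**Figure D4:**
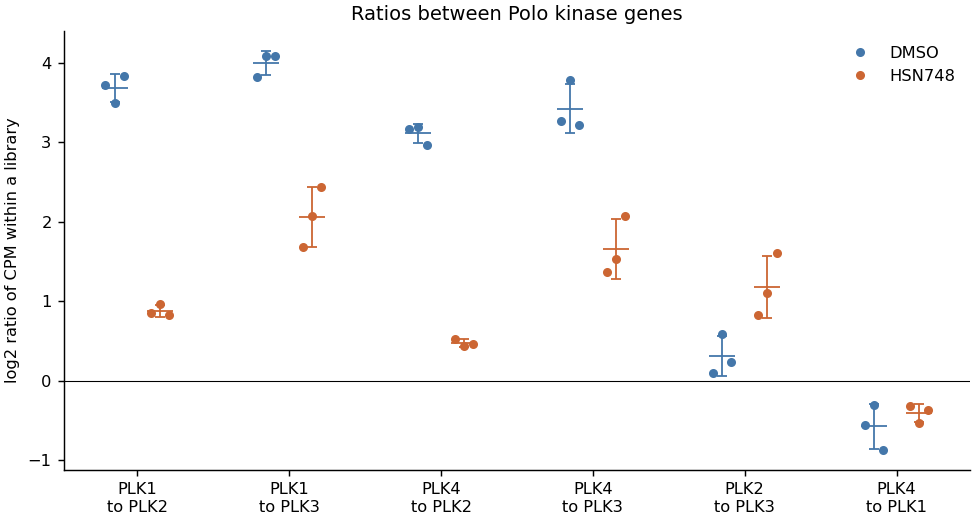
Log2 ratio of the CPM of 2 Polo kinase genes in the same library, for 6 pairs. Points are libraries, and bars show the mean and SD of the 3 DMSO and the 3 HSN748 libraries. All 4 ratios of PLK1 or PLK4 to PLK2 or PLK3 are lower with HSN748, with differences of -2.80 to -1.76 on the log2 scale, PLK2 to PLK3 is higher, and PLK4 to PLK1 overlaps.

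Per kilobase of gene length, the RNA of the Polo kinases shifted in its makeup. In DMSO libraries PLK1 supplied 67.3% ± 3.57 of the summed CPM per kilobase of the 4 genes, PLK4 24.8% ± 3.48, PLK2 3.98% ± 0.29 and PLK3 3.90% ± 0.44. In HSN748 libraries PLK1 supplied 48.8% ± 1.96, PLK4 20.1% ± 1.02, PLK2 20.1% ± 0.90 and PLK3 11.0% ± 2.49 (SD, n = 3 each). The shares of PLK2 and PLK3 were higher in each HSN748 library while their own TMM-scaled levels were lower, as the sum had fallen more.

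Ordered by CPM per kilobase in DMSO libraries, TPX2 was first at 80.6 ± 0.42, then PLK1 at 67.1 ± 6.60, BIRC5 at 43.1 ± 2.23 and AURKA at 40.1 ± 0.92. CDCA8 at 29.3 ± 1.93, AURKB at 27.9 ± 1.88, INCENP at 26.4 ± 1.57 and PLK4 at 24.6 ± 2.39 came next, and each of these overlapped its neighbor. PLK2 at 3.95 ± 0.16 and PLK3 at 3.89 ± 0.51 were last and overlapped. With HSN748 the 8 mitotic genes spanned 3.24 to 12.1 CPM per kilobase. PLK4 at 3.24 ± 0.21 then overlapped PLK2 at 3.24 ± 0.14, although in DMSO libraries all values of PLK4 lay above those of PLK2. AURKA at 8.06 ± 0.14 and PLK1 at 7.86 ± 0.10 were then nearly level. The lowest AURKA library was at 7.963 and the highest PLK1 library at 7.958. INCENP at 5.80 ± 0.03 had passed BIRC5 at 4.93 ± 0.18, and PLK3 was lowest at 1.77 ± 0.44 (SD, n = 3 each).

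**Figure D5:**
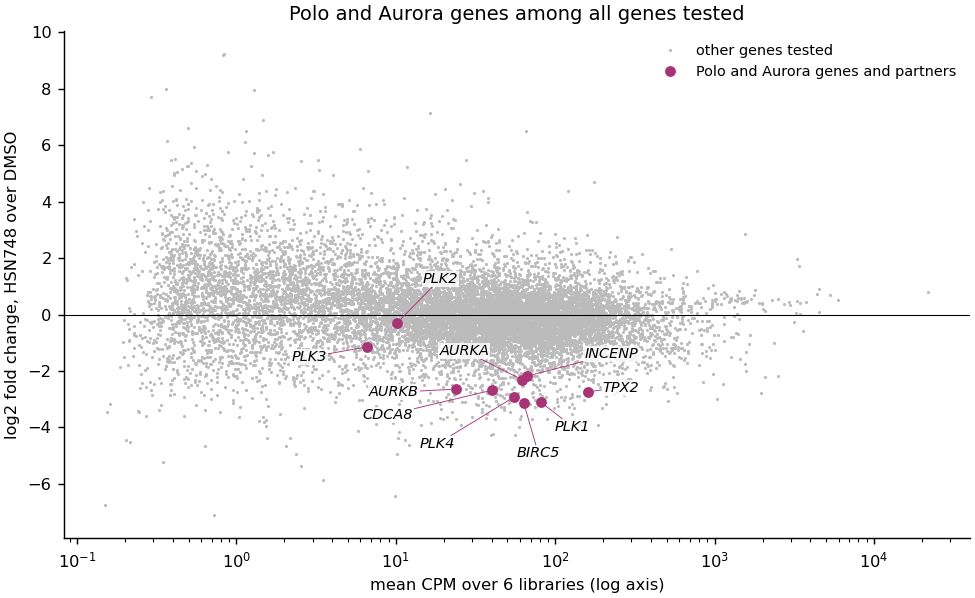
Log2 fold change of HSN748 over DMSO against the mean CPM of the 6 libraries on a log axis, for all 13084 tested genes, with the 10 genes named. The 8 mitotic genes lie between -2.19 and -3.13, near the lower edge of the genes at their level, and PLK2 at -0.29 lies within the main body.

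The pathway lists around the kinases were drawn up with earlier results of these data known, and their counts are a description beside the whole table, in which 36.5% of genes were lower and 36.6% higher at the adjusted p alone. Of 17 activators, docking partners and substrates of PLK1, 15 were lower, 1 higher and 1 did not pass, with a median log2 fold change of -2.51. BUB1, the checkpoint kinase to which PLK1 docks, went from 224 ± 12.1 to 29.5 ± 1.86 CPM (log2 fold change -2.92), and BUB1B, its relative in the mitotic checkpoint complex, from 156 ± 10.9 to 20.7 ± 0.50 CPM (-2.91). PRC1, which bundles midzone microtubules, fell from 239 ± 4.73 to 41.6 ± 2.04 CPM (-2.52), and KIF20A, a kinesin of cytokinesis, from 76.2 ± 0.79 to 13.4 ± 0.63 CPM (-2.51). The exception was KIZ, a centrosome protein that PLK1 phosphorylates, which rose from 15.4 ± 0.83 to 27.1 ± 2.34 CPM (log2 fold change 0.81, SE 0.10, adjusted p = 7.16e-05).

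Around PLK4, 8 of 12 centriole duplication genes were lower, 1 was higher and 3 did not pass, with a median of -0.65. STIL, which binds and activates PLK4, fell most clearly, from 92.6 ± 2.54 to 14.7 ± 1.43 CPM (log2 fold change -2.65, adjusted p = 6.03e-08). CEP152, which recruits PLK4 to the centriole, changed by -1.68, CCP110, a cap of the centriole end, by -1.08, and CDK5RAP2, a pericentriolar scaffold, by -0.82. CEP63, the partner of CEP152, was higher (42.9 ± 1.04 against 67.4 ± 2.26 CPM, log2 fold change 0.65, adjusted p = 3.41e-05). With the 12 reference genes as scale the list had 6 lower and 2 higher (median -0.35).

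Of 18 Aurora A activators and regulators and TPX2 partners, 16 were lower, 1 was higher and 1 did not pass, with a median of -1.23. With upper-quartile factors 13 were lower and 1 higher (median -1.02), as with the reference genes (median -0.92). KIF15 and KIF11, kinesins of the spindle, changed by -3.27 and -2.87, and HMMR, a spindle protein that binds TPX2, by -2.77. KPNA2, an importin alpha that holds TPX2 inactive, fell from 393 ± 15.1 to 98.1 ± 5.27 CPM (log2 fold change -2.0). PPP6R2, a subunit of the phosphatase that acts on Aurora A, was higher by 0.32 (adjusted p = 0.00470). The passenger complex list of recruiters, regulators and substrates had 16 of 18 lower, 1 higher and 1 not passing, with a median of -2.23, and it shares BUB1 and KIF20A with the PLK1 list. In it KIF2C, the centromeric microtubule depolymerase that Aurora B regulates, changed by -3.06, and NDC80, its kinetochore substrate, by -2.73. USP9X, a deubiquitinase of BIRC5, was higher by 0.36 (adjusted p = 0.00322). AURKC, the third Aurora kinase, was near the lower limit of counting at 0.43, 0.31 and 0.14 CPM in DMSO and 0.61, 0.88 and 0.40 CPM in HSN748 libraries, and the groups overlapped (log2 fold change 1.0, SE 0.44, adjusted p = 0.0675). It passed the adjusted p with total counts, upper-quartile factors and the reference genes.

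Known regulators of G2/M transcription had 12 of 16 lower, 2 higher and 2 not passing, with a median of -0.83. With the reference genes 10 were lower and 2 higher (median -0.52). FOXM1, the transcription factor of many G2/M genes, was at 111, 106 and 111 CPM in DMSO and 12.2, 12.4 and 13.1 CPM in HSN748 libraries (log2 fold change -3.12, SE 0.08, adjusted p = 2.24e-08), a change close in size to that of PLK1 and BIRC5. MYBL2, the MuvB partner in cycling cells, was at 267, 237 and 298 CPM in DMSO and 16.9, 15.8 and 21.8 CPM in HSN748 libraries (log2 fold change -3.87, SE 0.14). RBL1, the pocket protein p107, changed by -2.05 and TFDP1, the dimer partner of E2F factors, by -1.90. RBL2, the pocket protein p130 of resting cells, rose from 198 ± 18.1 to 250 ± 11.4 CPM (log2 fold change 0.34, adjusted p = 0.00546), and LIN37, a MuvB subunit, from 6.92 ± 0.72 to 11.7 ± 0.62 CPM (0.75).

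PLK2 and PLK3 are known as targets of p53 and as immediate early genes, and other genes of both kinds were listed beside them. Of 24 measured p53 targets out of 25, 13 were higher, 5 lower and 6 did not pass, with a median log2 fold change of 0.32. With upper-quartile factors 14 were higher and 4 lower (median 0.53), and with the reference genes 16 were higher and 3 lower (median 0.63). TP53INP1, a stress-induced p53 cofactor, rose from 4.05 ± 1.80 to 71.5 ± 6.31 CPM (log2 fold change 4.12), BTG2, an antiproliferative gene, from 14.5 ± 0.81 to 65.9 ± 1.24 CPM (2.18), and ZMAT3, an RNA-binding protein, from 43.7 ± 8.42 to 128 ± 9.10 CPM (1.55). AEN, an apoptosis nuclease, fell by 1.45 on the log2 scale, and TRIAP1, an inhibitor of apoptosis, by 0.66. Of 16 measured immediate early genes out of 19, 9 were lower, 3 higher and 4 did not pass, with a median of -0.39, and with the reference genes 6 were lower and 4 higher (median -0.09). With upper-quartile factors 7 were lower and 4 higher (median -0.19). EGR1, an early growth response factor, fell from 19.8 ± 6.46 to 0.65 ± 0.08 CPM (log2 fold change -4.92), FOSL1, a FOS relative in AP-1, by 2.78 and NR4A1, an orphan nuclear receptor, by 1.63. KLF6, a zinc finger factor, rose by 1.09, and ZFP36, which promotes decay of AU-rich mRNA, by 0.62. PLK2 was at -0.29 and PLK3 at -1.14 under TMM. Any part of p53 or of immediate early regulation in these values was not tested.

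The non-member genes with the closest profiles were taken from those with a mean of at least 5 CPM, by the root mean square (RMS) difference of log2 CPM over the 6 libraries after centering each gene. For PLK1 these were FEN1, the flap endonuclease of DNA replication (RMS difference 0.05), NCS1, a neuronal calcium sensor (0.06), and E2F1, the G1/S transcription factor (0.06). For PLK4 they were BUB1B (0.05), KIF23, a kinesin of the midzone (0.05), and DLGAP5, a spindle protein (0.06). For PLK2, CHD8, a chromatin remodeler (0.02), and DDX59, a helicase (0.03), were among them, with log2 fold changes of -0.31 and -0.30. PLK3 had no neighbor as close, with ITPR3, a calcium channel of the endoplasmic reticulum, at 0.13, DBF4B, a regulator of the CDC7 kinase, at 0.13 and BOLA2-SMG1P6, a readthrough gene of a duplicated region whose reads may be split between copies, at 0.15. With 3 libraries a group, these distances rest mainly on the size of the difference between the treatments.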

How the data were processed

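RNA from MOLM14 cells had been extracted with TRIzol, and a low-input kit was used for the libraries. bcl2fastq and STAR are named in the submitters' processing notes. Not given in the sources used here are their versions, the counter and its strand setting, the annotation, the genome build and any filter on genes. The table the authors deposited holds raw counts for 13244 genes, with gene lengths and positions, and these counts were used. Of the 10 genes, 6 had the start and end of RefSeq on GRCh38.p14. The 12 log2 columns of CPM and length-scaled values per library and the authors' own fold changes, p-values and FDR values were not used.

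Counts were analysed with edgeR 4.0.16 in R 4.3.3. filterByExpr removed 160 genes, TMM factors were 0.946 to 1.07, and the quasi-likelihood F test had treatment as its only term. The biological coefficient of variation was 11.2%. The SE is the size of the log2 fold change divided by the square root of F. Per-kilobase levels use the deposited lengths. Errors are SD unless named SE. In the gene lists, higher and lower refer to the adjusted p without the fold threshold, and the thresholds for calls follow the paper, whose logarithm is taken as base 2. The 10 members and all lists were chosen with earlier results of these data known. Named from each list were up to 4 measured genes with the smallest adjusted p and up to 2 that passed against its direction. Alternatives were DESeq2 1.42.0, limma-voom (limma 3.58.1), 4 other scalings, other filters and thresholds, and leaving out each library. The scripts were tested on simulated data. Figures were drawn with Python 3.11.15 and matplotlib 3.10.9. Results for some genes that the lists and the naming rule would include are not reported here.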

Additional observations from a re-analysis of the deposited data

How the results depend on the processing

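Under 14 alternative fits the log2 fold change of each of the 10 genes kept its direction and its side of the adjusted p in 133 of 140 cases. All 7 exceptions were PLK2, 6 with the same direction at an adjusted p above 0.05 and 1 reversed, at a log2 fold change of 0.0168 with scaling on the 12 reference genes. Leaving out 1 library gave PLK2 values of -0.32 to -0.24. The number of genes called lower was 1949, and 1292 with the reference genes, where 3147 were called higher instead of 2230. Upper-quartile factors gave 1488 lower and 2809 higher. The cause was not tested. Without the fold threshold 4770 genes were lower and 4793 higher. The count of Polo and Aurora genes and partners called lower was 8 to 10 under all settings and 0 were called higher, with 8 where PLK3 missed the fold threshold (upper-quartile factors, the reference genes, and without HSN748 replicate 9). The difference between PLK1 with PLK4 and PLK2 with PLK3 was -2.30 in DESeq2 and -2.28 in limma-voom. No paired analysis was possible because the DMSO and HSN748 replicates share no numbers. Depth limits PLK3 most, with 154 to 580 counts per library.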

Other observations

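The 12 reference genes often used to scale expression, on which the sign of the PLK2 change turned, were themselves unequal with HSN748. Under TMM, 7 were lower, 2 higher and 3 did not pass the adjusted p of edgeR, with a median log2 fold change of -0.42 (-0.11 when scaled on these genes). HPRT1, a purine salvage enzyme, fell from 106 ± 4.73 to 45.9 ± 3.64 CPM and PGK1, a glycolytic enzyme, from 745 ± 34.9 to 365 ± 21.1 CPM, while B2M, the light chain of MHC class I, rose from 159 ± 9.91 to 365 ± 46.1 CPM (SD, n = 3 each). A level of PLK2 or PLK3 read against HPRT1 alone would therefore differ from one read against B2M.

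FLT3, the gene of the kinase that HSN748 inhibits, rose from 396 ± 18.8 to 1150 ± 24.9 CPM (log2 fold change 1.54, edgeR adjusted p = 2.90e-07), in the direction opposite to that of the mitotic kinases. ITGAM, the integrin CD11b of myeloid cells, rose from 17.9 ± 1.24 to 35.8 ± 2.42 CPM (log2 fold change 1.0). HOXA10, a homeobox gene of leukemias with KMT2A rearrangement, was at -0.27 under TMM and at 0.03 with the reference genes.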
